A study of Mus musculus with 24 samples.

Results

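The 34 genes described here carry the ATF4 branch of the integrated stress response and the unfolded protein response of the endoplasmic reticulum (ER). They were taken by gene symbol from a list of transcription factors, stress sensors, feedback and stress effectors, amino acid and one-carbon genes, ER chaperones and ER-associated degradation genes. All 34 were found among the 52636 genes of the count tables, and all 34 were among the 14681 genes with enough reads to be tested. Levels are CPM, read counts scaled to a common library total after TMM normalization, and they compare libraries for the same gene. Between genes only the deposited RPKM, which divides by gene length, was compared. On that scale the chaperones Calr, Hspa5 and Hsp90b1 had the highest medians over the 24 libraries (421, 211 and 203 RPKM). The median of Atf4 was 101 RPKM, and the lowest medians were those of Vldlr, Phgdh and Chac1 (0.213, 0.286 and 1.02 RPKM).

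The cells were bone marrow-derived mouse macrophages, grown from femur and tibia marrow with M-CSF, the growth factor that drives macrophage differentiation. They were either left untreated or exposed for 8 h to R837 (imiquimod), which activates Toll-like receptor 7. The kinases TBK1 and IKKe (gene Ikbke) were altered in 4 genotypes, labelled TBK1-WT ∆control, TBK1-WT ∆IKKe, TBK1-cKD ∆control and TBK1-cKD ∆IKKe. Each genotype had 3 libraries per treatment, 24 in all. The series text calls cKD a conditional knockout, and neither the allele, the Cre driver nor what ∆control stands for is described. The protocol text states 3 individual mice as independent replicates and names wild-type C57BL/6N animals on every record, although 4 genotypes are labelled. Replicate numbers here follow the order of the records and pair nothing.

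As background, cells answer stress in the ER and a lack of amino acids by partly linked routes. The ER-resident kinase PERK (Eif2ak3) and the related kinases GCN2, PKR and HRI phosphorylate the initiation factor eIF2, which lowers general protein synthesis while the mRNA of ATF4 is translated more. ATF4 then switches on genes for amino acid synthesis, amino acid import and stress effectors, among them the transcription factor CHOP (Ddit3). The sensor IRE1 (Ern1) splices Xbp1 mRNA, and ATF6 is cut in the Golgi to release a transcription factor, and both of these routes raise ER chaperones and degradation factors. In macrophages, Toll-like receptor signalling is known to engage the IRE1 and XBP1 route. Read counts per gene show neither eIF2 phosphorylation, Xbp1 splicing nor ATF6 cleavage.

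Libraries held 19727746 to 41323219 gene counts, and macrophage markers were abundant in every one (10 genes, summed CPM 16560 to 33890). Among markers of other cell types, the summed lists of dendritic cells (7 genes), mast cells and basophils (5), B, T and NK cells (8, of which Cd79b reached 5.05 CPM) and erythroid cells (6) did not exceed 2.61, 3.97, 5.74 and 0.205 CPM in any library. The neutrophil list (8 genes) was at most 8.75 CPM in untreated libraries, 21.4 to 43.8 CPM after R837 in the first 3 genotypes and 122.9 to 215.6 CPM in those labelled TBK1-cKD ∆IKKe, where S100a8 alone reached 212.7 CPM while Ly6g and Elane did not exceed 0.0757 CPM in any library. The plasma cell list (7 genes) was 82.4 to 91.5 CPM in the untreated libraries of the first 3 genotypes, 209.4 to 211.6 CPM in untreated ones labelled TBK1-cKD ∆IKKe and 405.4 to 996.6 CPM after R837. Its highest gene was Sdc1 (up to 941 CPM), and the plasma cell genes Mzb1 and Tnfrsf17 did not exceed 0.144 and 0.186 CPM. The fibroblast list (7 genes) was 30.9 to 60.2 CPM in both TBK1-WT genotypes, 23.8 to 32.2 CPM in TBK1-cKD ∆control and 16.1 to 25.9 CPM in those labelled TBK1-cKD ∆IKKe. The part of these lists in the results was not tested. In these bulk libraries fewer cells of a type and less RNA per cell cannot be told apart. Levels of 3 RNAs that stay in the nucleus, Malat1, Neat1 and Xist, split the libraries. Their mean log2 CPM was 8.92 to 9.62 in the 12 untreated libraries and in 2 R837 libraries, replicate 1 of TBK1-WT ∆control and replicate 3 of those labelled TBK1-cKD ∆IKKe. It was 5.14 to 5.44 in the 10 other R837 libraries. The 14 high libraries also had more reads outside the gene counts (10.82% to 11.99%, against 8.41% to 8.93%). Nuclear RNA thus moves with treatment in all but these 2 R837 libraries. Fits with nuclear RNA as a term, and without the 2 libraries, were made for all 16 comparisons. The term, high or low, varies within a group only in the R837 groups that hold these 2 libraries, and is estimated from them and their mates. In TBK1-WT ∆IKKe and TBK1-cKD ∆control nuclear RNA follows treatment in every library. Their R837 responses with the term therefore carry over an estimate from the other genotypes. Among TBK1-cKD ∆control libraries after R837, the shallowest (replicate 2) had 14226 detected genes against 17948 and 17592 in its mates.

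The targeted genes were checked first. Tbk1 was lower in untreated TBK1-cKD ∆control (76.3, 74 and 73.4 CPM) than in TBK1-WT ∆control (102, 104 and 100.4 CPM), and stood between them in the TBK1-cKD ∆IKKe-labelled libraries (87.8, 90.7 and 88.5 CPM). Ikbke was lower in untreated TBK1-WT ∆IKKe (35.9, 34.5 and 35 CPM) than in TBK1-WT ∆control (59, 59.9 and 59.6 CPM). In the untreated libraries labelled TBK1-cKD ∆IKKe, however, Ikbke was above every control library (80.6, 76.9 and 81.3 CPM). After R837 those 3 libraries read 77.7, 82.7 and 259 CPM against 406, 220.1 and 233 CPM in TBK1-WT ∆control and 239.5, 239 and 248 CPM in TBK1-cKD ∆control. After R837, TBK1-WT ∆IKKe read 77, 70.5 and 79.3 CPM, so that labelled replicates 1 and 2 were near its level. Replicate 3 was near the control libraries of low nuclear RNA. The readings of 406 and 259 CPM are those of the 2 R837 libraries of high nuclear RNA, and between these 2 the labelled library was the lower. The Ikbke level goes against the IKKe label in the 3 untreated libraries, and in R837 replicate 3 beside the controls of low nuclear RNA. It goes with the label in R837 replicates 1 and 2. The libraries are therefore called the TBK1-cKD ∆IKKe-labelled libraries, and every direction drawn from them rests on that label. Counts over the whole gene do not show which exons a deletion removed. The library kit does not mark strand, and 11 of the 34 genes share some exon bases with another gene, at most 10.3% of them with any single one (Hsp90b1 with 1810014B01Rik).

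Promoters of 31 of the 34 genes were found in the RefSeq table of the GRCm38.p6 build (none for Atf6, Slc7a5 and Manf), as windows from 250 bases before to 50 bases after a start site. They were searched on both strands for the letters of 4 known elements. The C/EBP-ATF response element (CARE), which ATF4 dimers bind, was searched as TGATGNAA, and was present in the windows of 7 genes, Asns, Atf3, Chac1, Herpud1, Nupr1, Trib3 and Vldlr, and in 3.97% of all 32851 promoter windows. The ER stress element (ERSE), bound by ATF6 with NF-Y, was searched as CCAAT, any 9 bases and CCACG, and was present for 6 genes, all of them ER chaperones or folding factors (Calr, Creld2, Dnajc3, Hsp90b1, Hspa5 and Pdia6), against 0.119% of all windows. The related ERSE-II (ATTGG, any 1 base and CCACG) was present for Herpud1, against 0.0365% of all windows, and the unfolded protein response element searched as TGACGTGG for 0 of the 31, against 0.676%. The promoters of 6 of these genes are shown without the bases after the start site, because they hold these letters and their genes moved in different ways after R837. Capitals mark the match.
Chac1, chr2:119350992-119351241, plus strand: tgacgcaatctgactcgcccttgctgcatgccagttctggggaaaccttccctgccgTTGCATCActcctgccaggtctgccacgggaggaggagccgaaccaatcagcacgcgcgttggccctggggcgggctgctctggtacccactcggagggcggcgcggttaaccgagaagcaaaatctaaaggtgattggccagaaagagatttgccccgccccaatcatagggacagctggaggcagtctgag
Nupr1, chr7:126625471-126625720, minus strand: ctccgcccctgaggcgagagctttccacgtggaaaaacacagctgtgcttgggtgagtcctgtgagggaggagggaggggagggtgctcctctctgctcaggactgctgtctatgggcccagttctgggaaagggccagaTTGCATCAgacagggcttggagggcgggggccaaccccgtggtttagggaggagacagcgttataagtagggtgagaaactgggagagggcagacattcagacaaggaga
Atf3, chr1:191183334-191183583, minus strand: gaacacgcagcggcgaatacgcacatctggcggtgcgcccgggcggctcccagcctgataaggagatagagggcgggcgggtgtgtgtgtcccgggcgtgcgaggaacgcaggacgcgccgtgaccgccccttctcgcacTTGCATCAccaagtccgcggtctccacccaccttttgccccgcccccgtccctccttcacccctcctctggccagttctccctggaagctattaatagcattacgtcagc
Herpud1, chr8:94386179-94386428, plus strand: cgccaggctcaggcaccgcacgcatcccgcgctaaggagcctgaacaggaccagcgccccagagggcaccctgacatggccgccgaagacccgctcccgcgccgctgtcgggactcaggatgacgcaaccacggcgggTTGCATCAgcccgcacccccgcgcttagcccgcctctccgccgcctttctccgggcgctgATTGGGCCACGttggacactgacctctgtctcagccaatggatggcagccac
Hspa5, chr2:34771840-34772089, plus strand: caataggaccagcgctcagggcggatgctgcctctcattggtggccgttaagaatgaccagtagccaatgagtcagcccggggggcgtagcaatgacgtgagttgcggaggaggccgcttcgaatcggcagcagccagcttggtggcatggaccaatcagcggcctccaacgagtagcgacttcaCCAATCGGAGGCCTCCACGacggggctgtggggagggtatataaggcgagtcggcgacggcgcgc
Hsp90b1, chr10:86705445-86705694, minus strand: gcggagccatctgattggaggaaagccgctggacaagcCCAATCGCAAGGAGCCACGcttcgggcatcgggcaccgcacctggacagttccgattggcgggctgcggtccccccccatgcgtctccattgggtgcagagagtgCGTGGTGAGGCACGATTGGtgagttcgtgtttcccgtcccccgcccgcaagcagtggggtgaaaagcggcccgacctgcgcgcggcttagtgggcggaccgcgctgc
The CARE letters start 193 bases before the start site in Chac1, at position -193, and at positions -110, -110 and -112 in Nupr1, Atf3 and Herpud1. In these 4 windows they stand on the strand opposite to the gene, so the capitals read as the reverse complement. Herpud1 also carries the ERSE-II letters at position -52, Hspa5 carries 1 ERSE match at position -65, and Hsp90b1 carries matches at positions -212 and -107, the second of them reversed. A match describes the letters of the window and not binding.

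R837 split the 34 genes. Genes called higher in every genotype were the amino acid and one-carbon genes Asns, Phgdh, Shmt2, Mthfd2 and Slc3a2, the effectors Chac1 and Trib3, the factors Nupr1, Atf5 and Xbp1, the ER folding genes Dnajb9 and Manf, and Herpud1 of ER-associated degradation. The factors Ddit3, Atf3 and Cebpg, the sensor Atf6, the ER folding genes Sdf2l1 and Pdia4, and Edem1 of ER-associated degradation fell in every genotype. Of the 34, 27 were called in TBK1-WT ∆control at an adjusted p under 0.05 (17 up and 10 down), where 62.6% of all genes were called (30.6% up and 32% down). TBK1-WT ∆IKKe had 30 called (18 up and 12 down; all genes 70.2%, 32.4% up and 37.8% down), and TBK1-cKD ∆control 29 (15 up and 14 down; all genes 69.1%, 31.6% up and 37.5% down). The TBK1-cKD ∆IKKe-labelled libraries had 27 called (18 up and 9 down; all genes 66.5%, 31.6% up and 34.8% down). The share of the 34 called was above that of all genes in each genotype, but the 34 were chosen with earlier results of these data known. The shares called down were 29.4%, 35.3%, 41.2% and 26.5% in that order of genotypes. They were above that of all genes only in TBK1-cKD ∆control. Median log2 changes of the 34 were 0.33, 0.51, 0.20 and 0.32 in that order of genotypes, against -0.04, -0.07, -0.08 and -0.07 over all genes.

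Since the 4 responses were measured in separate libraries, they can be counted side by side. In all 4, 13 genes rose (38.2% of the 34, against 23% of all genes tested) and 7 fell (20.6%, against 25.3%). Hspa5 was called in all 4 with mixed directions, Ern1 also had calls of both signs, and Calr was called in none. Without the 2 R837 libraries of high nuclear RNA, more of all genes were called in each genotype. The counts of the 34 were then 19 up and 11 down in TBK1-WT ∆control (all genes 35.7% up and 36.9% down) and 20 and 12 in TBK1-WT ∆IKKe (36.7% and 38.8%). They were 19 and 14 in TBK1-cKD ∆control (35.9% and 38.4%) and 21 and 10 in those labelled TBK1-cKD ∆IKKe (36.3% and 38%). With nuclear RNA as a term, they were 16 and 11 (all genes 29.8% up and 30.1% down), 16 and 10 (27.7% and 26.5%), 12 and 13 (26.3% and 26.3%) and 19 and 8 (32.1% and 33.6%), so that more genes fell than rose in TBK1-cKD ∆control. The medians of the 34 were then 0.13, 0.21, 0.016 and 0.25, lower in each genotype than without the term. For TBK1-WT ∆IKKe and TBK1-cKD ∆control these values rest on a term estimated in the other genotypes. In that fit Shmt2, Xbp1, Dnajb9, Herpud1, Manf, Atf3 and Ddit3 lost their call in 1 or more genotypes, whereas the other genes named above as called in 1 direction throughout kept it.

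**Figure D1:**
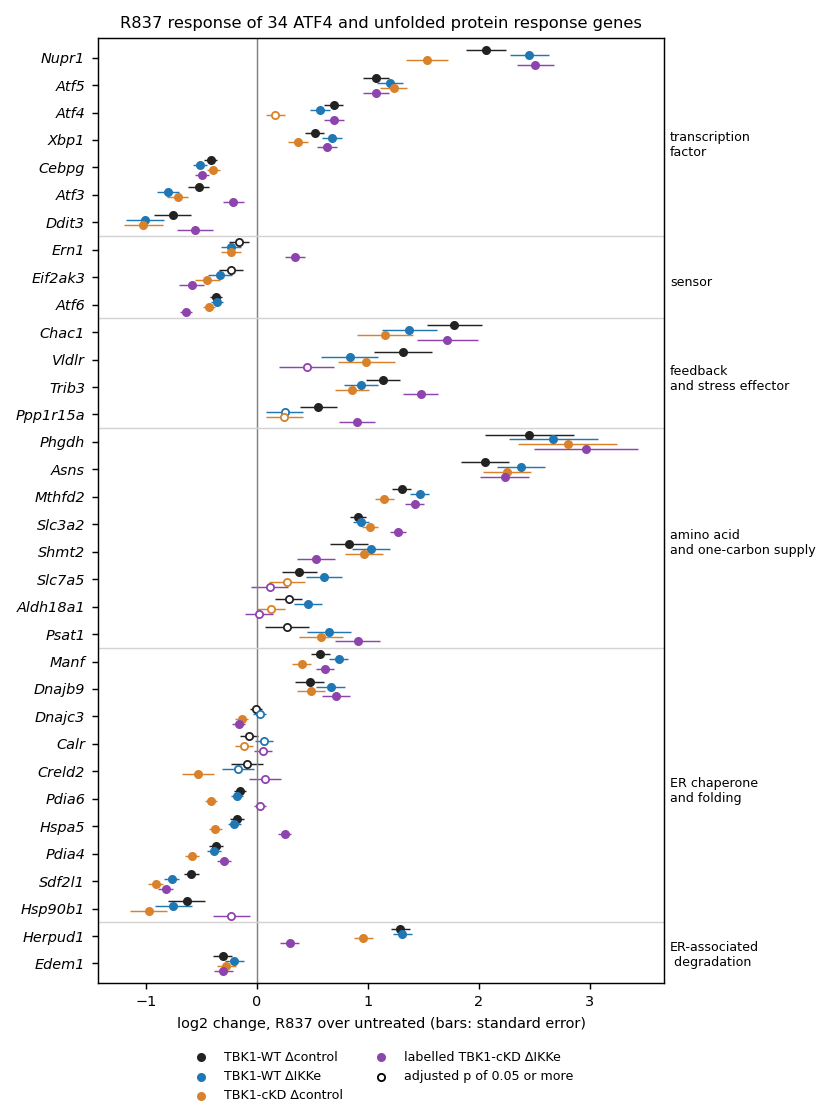
Log2 change of each of the 34 genes after R837 (horizontal axis) in the 4 genotypes, grouped by role. Bars are 1 standard error from the fit over all 24 libraries (3 per group). Open points mark an adjusted p of 0.05 or more. Genes of amino acid supply sit to the right of 0, while Ern1 and Hspa5 lie on opposite sides of 0 in the TBK1-cKD ∆IKKe-labelled libraries and the other genotypes.

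Among the transcription factors, the ATF4 mRNA itself moved less than several of its known targets. Atf4 stood at 158, 159 and 161 CPM untreated and 292, 241 and 238 CPM after R837 in TBK1-WT ∆control, and at 157, 168 and 166 against 252, 241 and 235 CPM in TBK1-WT ∆IKKe. Atf4 in TBK1-cKD ∆control stood at 177, 186 and 180.4 against 211, 184 and 213 CPM, and in the TBK1-cKD ∆IKKe-labelled libraries at 153, 153 and 158 against 216, 239 and 293 CPM. Atf4 levels of R837 libraries lay above the untreated ones in TBK1-WT ∆control, TBK1-WT ∆IKKe and the TBK1-cKD ∆IKKe-labelled libraries, and within overlapping ranges in TBK1-cKD ∆control. Atf4 log2 changes with SE were 0.69 ± 0.09 (adjusted p = 7.7e-07), 0.57 ± 0.09 (adjusted p = 9e-06), 0.17 ± 0.09 (adjusted p = 0.102) and 0.69 ± 0.09 (adjusted p = 6.21e-07) in that order of genotypes. The change in TBK1-cKD ∆control missed the threshold, although it passed without R837 replicate 2, the library with the fewest counts (0.23), and without the 2 R837 libraries of high nuclear RNA (0.21). With a term for nuclear RNA in the fit it was 0.49.

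Atf5, an ATF4-related factor that is itself regulated by translation, rose in all genotypes. Atf5 measured 23.3, 26.3 and 30.1 CPM in untreated TBK1-WT ∆control libraries and 50.0, 58.3 and 59 CPM after R837, and TBK1-WT ∆IKKe measured 24.9, 29.5 and 28.5 and then 65.1, 59.1 and 65.2 CPM. For Atf5, TBK1-cKD ∆control gave 28.6, 27.9 and 30 CPM untreated and 72.6, 63.8 and 66.3 CPM after R837, and the TBK1-cKD ∆IKKe-labelled libraries gave 27.5, 26.2 and 26.6 and then 56, 68.3 and 44.6 CPM. Atf5 levels of R837 libraries lay above the untreated ones in all 4 genotypes, with log2 changes of 1.07 to 1.23 (SE 0.12, adjusted p from 1.15e-08 to 8.96e-08). Nupr1, a small stress-induced chromatin protein, had the widest spread among genotypes of the factors. Nupr1 stood at 4.56, 4.96 and 4.55 CPM untreated and 23.1, 18.9 and 16.8 CPM after R837 in TBK1-WT ∆control, and at 6.05, 6.28 and 4.42 against 32.6, 27.8 and 31 CPM in TBK1-WT ∆IKKe. Nupr1 in TBK1-cKD ∆control stood at 4.05, 3.34 and 3.94 against 12.8, 6.71 and 12.9 CPM, and in the TBK1-cKD ∆IKKe-labelled libraries at 13.8, 13.4 and 12.8 against 71.5, 72.7 and 83.3 CPM. Nupr1 levels of R837 libraries lay above the untreated ones in all 4 genotypes. Nupr1 log2 changes with SE were 2.06 ± 0.18 (adjusted p = 2.05e-09), 2.46 ± 0.18 (adjusted p = 1.17e-10), 1.53 ± 0.19 (adjusted p = 4.24e-07) and 2.51 ± 0.17 (adjusted p = 2.86e-11) in that order of genotypes. In TBK1-cKD ∆control, replicate 2 was the lowest R837 library. The CARE letters shown above lie upstream of its start site.

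Ddit3, which encodes the pro-apoptotic factor CHOP, fell in all genotypes. Ddit3 measured 17.3, 17.8 and 19.3 CPM in untreated TBK1-WT ∆control libraries and 14.6, 8.08 and 9.15 CPM after R837, and TBK1-WT ∆IKKe measured 20.9, 22.2 and 20.1 and then 11.7, 8.96 and 10.5 CPM. For Ddit3, TBK1-cKD ∆control gave 15.9, 16.2 and 14.8 CPM untreated and 6.74, 9.99 and 6.62 CPM after R837, and the TBK1-cKD ∆IKKe-labelled libraries gave 26.5, 27.1 and 27.1 and then 15.8, 17.4 and 21.3 CPM. Ddit3 levels of R837 libraries lay below the untreated ones in all 4 genotypes, and the highest R837 library of TBK1-WT ∆control was replicate 1, of high nuclear RNA. Ddit3 log2 changes with SE were -0.76 ± 0.17 (adjusted p = 0.00054), -1.01 ± 0.17 (adjusted p = 2.47e-05), -1.03 ± 0.18 (adjusted p = 3.57e-05) and -0.56 ± 0.16 (adjusted p = 0.005) in that order of genotypes. With a term for nuclear RNA the changes shrank to -0.44, -0.47, -0.50 and -0.22, the last of which missed the threshold.

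Atf3, an immediate stress factor that restrains Toll-like receptor signalling in macrophages, fell too, and its promoter window holds the same CARE letters as that of Nupr1. Atf3 stood at 388, 414 and 395 CPM untreated and 314, 252 and 266 CPM after R837 in TBK1-WT ∆control, and at 387, 455 and 458 against 258, 240.2 and 247 CPM in TBK1-WT ∆IKKe. Atf3 in TBK1-cKD ∆control stood at 472, 531 and 509.8 against 305, 282 and 334 CPM, and in the TBK1-cKD ∆IKKe-labelled libraries at 456, 472 and 504 against 383, 372 and 476 CPM. Atf3 levels of R837 libraries lay below the untreated ones in TBK1-WT ∆control, TBK1-WT ∆IKKe and TBK1-cKD ∆control, and within overlapping ranges in the TBK1-cKD ∆IKKe-labelled libraries. Atf3 log2 changes with SE were -0.53 ± 0.10 (adjusted p = 6.59e-05), -0.80 ± 0.10 (adjusted p = 2.52e-07), -0.72 ± 0.10 (adjusted p = 1.35e-06) and -0.22 ± 0.10 (adjusted p = 0.0498) in that order of genotypes. The smallest of these, in the TBK1-cKD ∆IKKe-labelled libraries, just passed. It was lost without untreated replicate 2 (-0.23) or 3 (-0.18), or R837 replicate 1 (-0.17) or 2 (-0.15), and was -0.34 without R837 replicate 3. With a term for nuclear RNA it was -0.02 and did not pass. In the libraries of high nuclear RNA alone, which keep only R837 replicate 3 of that group, it was 0.01. The term brought the other Atf3 changes to -0.33, -0.49 and -0.41, which still passed. Cebpg, a C/EBP protein that pairs with ATF4 on CARE sites, fell as well. Cebpg measured 86.5, 89.1 and 85.2 CPM in untreated TBK1-WT ∆control libraries and 71.6, 60.4 and 62.9 CPM after R837, and TBK1-WT ∆IKKe measured 79.8, 79.4 and 85.7 and then 57.7, 60.2 and 53.5 CPM. For Cebpg, TBK1-cKD ∆control gave 83.7, 82.9 and 81.6 CPM untreated and 63.6, 64.2 and 61 CPM after R837, and the TBK1-cKD ∆IKKe-labelled libraries gave 77.7, 79.2 and 78.9 and then 55.6, 53.1 and 58.5 CPM. Cebpg levels of R837 libraries lay below the untreated ones in all 4 genotypes, with log2 changes of -0.52 to -0.40 (SE 0.06, adjusted p from 2.51e-07 to 9.9e-06). The term brought the change in TBK1-cKD ∆control from -0.40 to -0.23.

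**Figure D2:**
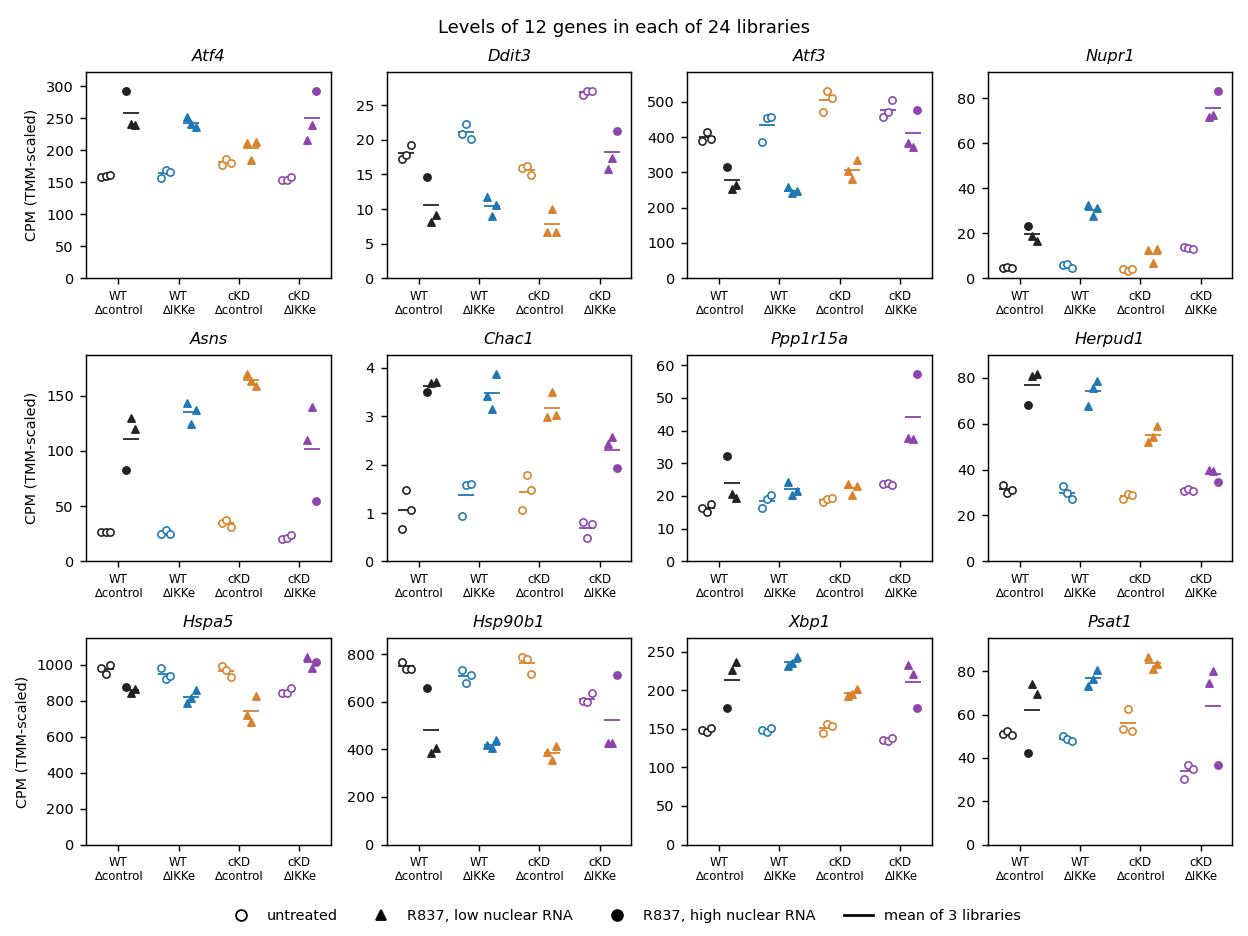
Level in CPM (vertical axes from 0, linear) of 12 of the genes in each of the 24 libraries, by genotype, with open symbols for untreated and filled ones for R837, circles for high and triangles for low nuclear RNA, and a line at the mean of 3 libraries. Nupr1 reaches 83.3 CPM in the TBK1-cKD ∆IKKe-labelled libraries, and the 2 filled circles stand apart from their group mates for Asns, Psat1 and Hsp90b1.

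The 4 feedback and stress effectors rose or stayed under the threshold, and none fell. Chac1 encodes an enzyme that degrades glutathione and was low in every library. Chac1 stood at 0.66, 1.47 and 1.05 CPM untreated and 3.5, 3.68 and 3.7 CPM after R837 in TBK1-WT ∆control, and at 0.941, 1.57 and 1.6 against 3.42, 3.15 and 3.87 CPM in TBK1-WT ∆IKKe. Chac1 in TBK1-cKD ∆control stood at 1.06, 1.78 and 1.49 against 2.99, 3.5 and 3.03 CPM, and in the TBK1-cKD ∆IKKe-labelled libraries at 0.814, 0.483 and 0.765 against 2.42, 2.58 and 1.94 CPM. Chac1 levels of R837 libraries lay above the untreated ones in all 4 genotypes. Chac1 log2 changes with SE were 1.78 ± 0.25 (adjusted p = 2.68e-06), 1.37 ± 0.25 (adjusted p = 6.11e-05), 1.15 ± 0.25 (adjusted p = 0.000432) and 1.72 ± 0.28 (adjusted p = 1.26e-05) in that order of genotypes. Trib3, a pseudokinase that binds ATF4 and CHOP, behaved alike in direction. Trib3 measured 5.67, 6.14 and 6.1 CPM in untreated TBK1-WT ∆control libraries and 12.1, 15.2 and 12.1 CPM after R837, and TBK1-WT ∆IKKe measured 5.74, 7.76 and 7.88 and then 13.4, 13.2 and 14 CPM. For Trib3, TBK1-cKD ∆control gave 6.94, 10.0 and 7.8 CPM untreated and 14.4, 17.6 and 12.8 CPM after R837, and the TBK1-cKD ∆IKKe-labelled libraries gave 4.56, 5.21 and 5 and then 13.2, 16.2 and 11.7 CPM. Trib3 levels of R837 libraries lay above the untreated ones in all 4 genotypes, with log2 changes of 0.86 to 1.48 (SE 0.15 to 0.16, adjusted p from 4.66e-08 to 5.23e-05).

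Vldlr, a lipoprotein receptor gene that ATF4 activates in other cell types, was low in level, with between 30 and 118 reads per library. Vldlr stood at 0.873, 1.18 and 0.989 CPM untreated and 2.81, 2.69 and 2.03 CPM after R837 in TBK1-WT ∆control, and at 0.963, 1.7 and 1.77 against 2.99, 2.28 and 2.49 CPM in TBK1-WT ∆IKKe. Vldlr in TBK1-cKD ∆control stood at 1.06, 1.67 and 1.63 against 2.99, 2.16 and 3.26 CPM, and in the TBK1-cKD ∆IKKe-labelled libraries at 1.76, 1.86 and 2.12 against 1.82, 2.54 and 3.41 CPM. Vldlr levels of R837 libraries lay above the untreated ones in TBK1-WT ∆control, TBK1-WT ∆IKKe and TBK1-cKD ∆control, and within overlapping ranges in the TBK1-cKD ∆IKKe-labelled libraries. It rose in TBK1-WT ∆control (log2 change 1.32 ± 0.26 SE, adjusted p = 0.00017), TBK1-WT ∆IKKe (0.83 ± 0.26 SE, adjusted p = 0.00721) and TBK1-cKD ∆control (0.98 ± 0.26 SE, adjusted p = 0.00219). In those labelled TBK1-cKD ∆IKKe the change was 0.45 ± 0.25 SE, adjusted p = 0.12 and passed without R837 replicate 1 (0.64), while the call in TBK1-WT ∆IKKe was lost without untreated replicate 1 (0.57).

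Ppp1r15a encodes GADD34, the phosphatase subunit that reverses eIF2 phosphorylation. Ppp1r15a measured 16.4, 15.2 and 17.7 CPM in untreated TBK1-WT ∆control libraries and 32.1, 20.5 and 19.4 CPM after R837, and TBK1-WT ∆IKKe measured 16.4, 19.1 and 20.2 and then 24.3, 20.3 and 21.4 CPM. For Ppp1r15a, TBK1-cKD ∆control gave 18.1, 19.1 and 19.3 CPM untreated and 23.8, 20.2 and 23 CPM after R837, and the TBK1-cKD ∆IKKe-labelled libraries gave 23.7, 23.9 and 23.4 and then 37.6, 37.3 and 57.3 CPM. Ppp1r15a levels of R837 libraries lay above the untreated ones in all 4 genotypes. Ppp1r15a log2 changes with SE were 0.55 ± 0.16 (adjusted p = 0.00612), 0.25 ± 0.17 (adjusted p = 0.186), 0.24 ± 0.17 (adjusted p = 0.195) and 0.90 ± 0.16 (adjusted p = 5.34e-05) in that order of genotypes. Only the first and the last passed among the 4 genotypes. Both groups contain a library of high nuclear RNA, which is the highest of its group, and the rise in TBK1-WT ∆control was 0.33 without replicate 1, still past the threshold. Without both libraries of high nuclear RNA the changes in TBK1-WT ∆IKKe and TBK1-cKD ∆control were 0.30 and 0.30 and passed.

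Genes of amino acid and one-carbon supply made the largest group that rose. Of 8, 6 rose in TBK1-WT ∆control, 8 did so in TBK1-WT ∆IKKe, 6 in TBK1-cKD ∆control and 6 in those labelled TBK1-cKD ∆IKKe, and 0 fell in any of the 4 genotypes. Their median log2 changes were 0.87, 0.98, 0.99 and 1.09. Of all genes, 30.6% to 32.4% rose and 32% to 37.8% fell in the 4 genotypes. All 8 supply genes lay below both group mates in the 2 R837 libraries of high nuclear RNA, so the size of these rises moved with nuclear RNA. How many of all genes did so was not counted. With nuclear RNA as a term, Psat1 and Aldh18a1 turned below 0 in some genotypes, and Slc7a5 and Shmt2 lost calls. Asns, Phgdh, Mthfd2 and Slc3a2 kept theirs.

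Asns, the asparagine synthetase whose promoter is a classical ATF4 target, rose more than 4-fold. Asns stood at 26.2, 27.1 and 26.4 CPM untreated and 82.8, 129.5 and 119.9 CPM after R837 in TBK1-WT ∆control, and at 24.6, 28.7 and 24.7 against 143, 125 and 137 CPM in TBK1-WT ∆IKKe. Asns in TBK1-cKD ∆control stood at 34.6, 37.3 and 31.4 against 169.8, 164 and 159 CPM, and in the TBK1-cKD ∆IKKe-labelled libraries at 20.1, 21.2 and 23.5 against 109.8, 140 and 54.8 CPM. Asns levels of R837 libraries lay above the untreated ones in all 4 genotypes. Asns log2 changes with SE were 2.06 ± 0.22 (adjusted p = 4.29e-08), 2.38 ± 0.22 (adjusted p = 5.19e-09), 2.25 ± 0.22 (adjusted p = 1.13e-08) and 2.23 ± 0.22 (adjusted p = 1.21e-08) in that order of genotypes. In TBK1-WT ∆control and in those labelled TBK1-cKD ∆IKKe, the lowest R837 library was the one of high nuclear RNA. With the nuclear RNA term the change was 1.51 in TBK1-WT ∆IKKe and 1.38 in TBK1-cKD ∆control, each past the threshold. With libraries of high nuclear RNA alone it was 1.36 in those labelled TBK1-cKD ∆IKKe, where only R837 replicate 3 remains.

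Serine synthesis starts with Phgdh, a gene of very low level here that had 5 to 98 reads per library. Phgdh measured 0.405, 0.496 and 0.462 CPM in untreated TBK1-WT ∆control libraries and 1.98, 2.63 and 2.94 CPM after R837, and TBK1-WT ∆IKKe measured 0.583, 0.479 and 0.4 and then 3.31, 2.67 and 3.48 CPM. For Phgdh, TBK1-cKD ∆control gave 0.31, 0.254 and 0.334 CPM untreated and 2.58, 0.943 and 2.65 CPM after R837, and the TBK1-cKD ∆IKKe-labelled libraries gave 0.217, 0.186 and 0.265 and then 1.97, 2.81 and 0.635 CPM. Phgdh levels of R837 libraries lay above the untreated ones in all 4 genotypes. Phgdh log2 changes with SE were 2.46 ± 0.40 (adjusted p = 1.92e-05), 2.67 ± 0.40 (adjusted p = 6.38e-06), 2.80 ± 0.45 (adjusted p = 1.36e-05) and 2.97 ± 0.47 (adjusted p = 1.14e-05) in that order of genotypes. The R837 libraries that were low within their groups were replicate 2 of TBK1-cKD ∆control and replicate 3 of those labelled TBK1-cKD ∆IKKe. With the nuclear RNA term the changes in TBK1-WT ∆IKKe and TBK1-cKD ∆control were 1.64 and 1.79. With libraries of high nuclear RNA alone that in those labelled TBK1-cKD ∆IKKe was 1.501, where only R837 replicate 3 remains.

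The next enzyme of that route, Psat1, gave another picture. Its R837 levels were 42.4, 74.2 and 69.4 CPM in TBK1-WT ∆control and 74.5, 80.2 and 36.7 CPM in those labelled TBK1-cKD ∆IKKe, with the library of high nuclear RNA far below its mates in both. TBK1-WT ∆IKKe read 73.2, 76.4 and 80.8 CPM and TBK1-cKD ∆control 86.7, 81 and 83.6 CPM, and untreated levels ran from 30.4 to 62.7 CPM over all genotypes. Psat1 rose in TBK1-WT ∆IKKe (log2 change 0.65 ± 0.20 SE, adjusted p = 0.00724), TBK1-cKD ∆control (0.58 ± 0.20 SE, adjusted p = 0.0152) and those labelled TBK1-cKD ∆IKKe (0.91 ± 0.20 SE, adjusted p = 0.000531), and the change in TBK1-WT ∆control was 0.27 ± 0.20 SE, adjusted p = 0.246. Without replicate 1 the last was 0.54 and passed. Once nuclear RNA was a term of the fit, the direction turned in TBK1-WT ∆control (-0.38), TBK1-WT ∆IKKe (-0.26) and TBK1-cKD ∆control (-0.33), and the change in those labelled TBK1-cKD ∆IKKe was 0.23. The call in TBK1-cKD ∆control was also lost without untreated replicate 3 (0.53).

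Shmt2 and Mthfd2 are the mitochondrial enzymes that turn serine into formate. Shmt2 stood at 47.8, 49.9 and 51.5 CPM untreated and 65.1, 101 and 98.6 CPM after R837 in TBK1-WT ∆control, and at 50.7, 49.1 and 46.2 against 96, 93.6 and 108 CPM in TBK1-WT ∆IKKe. Shmt2 in TBK1-cKD ∆control stood at 52.4, 51 and 51.7 against 107, 93.6 and 101 CPM, and in the TBK1-cKD ∆IKKe-labelled libraries at 48.7, 49.9 and 48.6 against 75.3, 91.8 and 45.3 CPM. Shmt2 levels of R837 libraries lay above the untreated ones in TBK1-WT ∆control, TBK1-WT ∆IKKe and TBK1-cKD ∆control, and within overlapping ranges in the TBK1-cKD ∆IKKe-labelled libraries, with log2 changes of 0.53 to 1.03 (SE 0.17, adjusted p from 2.16e-05 to 0.0099). The change in those labelled TBK1-cKD ∆IKKe was the lowest of these and was lost without R837 replicate 2 (0.29). It was 0.83 without the 2 R837 libraries of high nuclear RNA and -0.02 with the nuclear RNA term, which brought the others to 0.31, 0.28 and 0.22, the last of which missed the threshold. Mthfd2 measured 39.9, 42 and 39.3 CPM in untreated TBK1-WT ∆control libraries and 93.5, 104 and 102 CPM after R837, and TBK1-WT ∆IKKe measured 36.4, 39.6 and 38.9 and then 109, 102 and 107 CPM. For Mthfd2, TBK1-cKD ∆control gave 46, 48.8 and 42.8 CPM untreated and 104, 101 and 100.0 CPM after R837, and the TBK1-cKD ∆IKKe-labelled libraries gave 31.5, 35.2 and 33.9 and then 89.4, 104 and 75.3 CPM. Mthfd2 levels of R837 libraries lay above the untreated ones in all 4 genotypes, with log2 changes of 1.15 to 1.47 (SE 0.09, adjusted p from 3.79e-12 to 2.02e-10). Mthfd2 replicates lay close together except in the labelled R837 libraries (75.3 to 104 CPM). No alternative moved its response in any of the 4 genotypes by more than 1.5 times.

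Slc3a2 is the heavy chain of amino acid exchangers, and Slc7a5 (LAT1) is the light chain that pairs with it for large neutral amino acids. Slc3a2 stood at 259.5, 256 and 276 CPM untreated and 449, 524 and 517 CPM after R837 in TBK1-WT ∆control, and at 260.4, 275 and 278 against 539, 513 and 510.2 CPM in TBK1-WT ∆IKKe. Slc3a2 in TBK1-cKD ∆control stood at 274, 278 and 288 against 589.6, 552 and 557 CPM, and in the TBK1-cKD ∆IKKe-labelled libraries at 281, 279 and 286 against 694, 755 and 591 CPM. Slc3a2 levels of R837 libraries lay above the untreated ones in all 4 genotypes, with log2 changes of 0.91 to 1.27 (SE 0.07, adjusted p from 1.62e-12 to 4.81e-10). Slc7a5 moved much less. Slc7a5 measured 16.3, 19.2 and 19.6 CPM in untreated TBK1-WT ∆control libraries and 20.3, 24.6 and 26.9 CPM after R837, and TBK1-WT ∆IKKe measured 17.7, 18.1 and 16.4 and then 27, 24.1 and 27.9 CPM. For Slc7a5, TBK1-cKD ∆control gave 18.1, 14.8 and 15.5 CPM untreated and 21.8, 17.3 and 19.1 CPM after R837, and the TBK1-cKD ∆IKKe-labelled libraries gave 13.9, 12.8 and 15.1 and then 15.9, 19.3 and 10.1 CPM. Slc7a5 levels of R837 libraries lay above the untreated ones in TBK1-WT ∆control and TBK1-WT ∆IKKe, and within overlapping ranges in TBK1-cKD ∆control and the TBK1-cKD ∆IKKe-labelled libraries. Slc7a5 rose in TBK1-WT ∆control (log2 change 0.38 ± 0.16 SE, adjusted p = 0.0432) and TBK1-WT ∆IKKe (0.60 ± 0.16 SE, adjusted p = 0.0024), and the changes in TBK1-cKD ∆control and in those labelled TBK1-cKD ∆IKKe were 0.27 and 0.11, the last of which was 0.34 and passed without R837 replicate 3. The call in TBK1-WT ∆control was lost without untreated replicate 1 (0.30), 2 (0.42) or 3 (0.43), or R837 replicate 2 (0.36) or 3 (0.29). Under the nuclear RNA term both calls were lost (0.02 and 0.06).

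Aldh18a1, which makes the precursor of proline and ornithine, passed the test in TBK1-WT ∆IKKe alone. Aldh18a1 stood at 25.7, 27.7 and 29.3 CPM untreated and 29.7, 36.3 and 34.8 CPM after R837 in TBK1-WT ∆control, and at 28, 25.9 and 24.7 against 36, 32.8 and 39.2 CPM in TBK1-WT ∆IKKe. Aldh18a1 in TBK1-cKD ∆control stood at 30.7, 29.7 and 28.7 against 35.2, 28.1 and 33.4 CPM, and in the TBK1-cKD ∆IKKe-labelled libraries at 21.5, 22.5 and 22.9 against 24.8, 26.2 and 16.7 CPM. Aldh18a1 levels of R837 libraries lay above the untreated ones in TBK1-WT ∆control and TBK1-WT ∆IKKe, and within overlapping ranges in TBK1-cKD ∆control and the TBK1-cKD ∆IKKe-labelled libraries. Its log2 change in TBK1-WT ∆IKKe was 0.46 ± 0.12 SE, adjusted p = 0.00278, and those of the other genotypes were 0.28 ± 0.12 SE, adjusted p = 0.0508, 0.12 ± 0.12 SE, adjusted p = 0.385 and 0.02 ± 0.13 SE, adjusted p = 0.902. Its response difference from TBK1-WT ∆control did not pass in any of the 3 other genotypes. Without replicate 1 the change in TBK1-WT ∆control was 0.42 and passed, and the call in TBK1-WT ∆IKKe was lost with the nuclear RNA term (0.04).

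Of the 3 sensors, Atf6 fell in all genotypes. Atf6 measured 204, 203 and 204 CPM in untreated TBK1-WT ∆control libraries and 163, 148 and 163 CPM after R837, and TBK1-WT ∆IKKe measured 193, 193 and 193 and then 151, 146 and 152 CPM. For Atf6, TBK1-cKD ∆control gave 181, 172 and 177 CPM untreated and 140.3, 118 and 134 CPM after R837, and the TBK1-cKD ∆IKKe-labelled libraries gave 170.2, 171 and 171 and then 106, 112 and 110.4 CPM. Atf6 levels of R837 libraries lay below the untreated ones in all 4 genotypes. Atf6 log2 changes with SE were -0.37 ± 0.05 (adjusted p = 5.49e-06), -0.36 ± 0.05 (adjusted p = 5.72e-06), -0.43 ± 0.05 (adjusted p = 6.11e-07) and -0.64 ± 0.06 (adjusted p = 1.23e-09) in that order of genotypes. Eif2ak3, which encodes PERK, lay lower in each R837 library than in any untreated library of its genotype. Eif2ak3 stood at 46.9, 46.5 and 46.2 CPM untreated and 44.8, 36.3 and 37.3 CPM after R837 in TBK1-WT ∆control, and at 45.2, 45.7 and 42.6 against 35.4, 32.9 and 37.7 CPM in TBK1-WT ∆IKKe. Eif2ak3 in TBK1-cKD ∆control stood at 46.5, 45.4 and 45.5 against 40.0, 27.9 and 32.4 CPM, and in the TBK1-cKD ∆IKKe-labelled libraries at 45.2, 40.5 and 42.8 against 24.3, 28.7 and 32.2 CPM. Eif2ak3 levels of R837 libraries lay below the untreated ones in all 4 genotypes. It fell in TBK1-WT ∆IKKe (-0.33 ± 0.11 SE, adjusted p = 0.0106), TBK1-cKD ∆control (-0.45 ± 0.11 SE, adjusted p = 0.00119) and those labelled TBK1-cKD ∆IKKe (-0.59 ± 0.11 SE, adjusted p = 7.47e-05), while TBK1-WT ∆control gave -0.24 ± 0.11 SE, adjusted p = 0.0643, which passed without R837 replicate 1 (-0.29). The first call was lost without R837 replicate 2 (-0.28), and with the nuclear RNA term the first and second were lost (-0.05 and -0.16).

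Ern1, which encodes IRE1, had calls of both signs. Ern1 measured 82.4, 85.5 and 85.1 CPM in untreated TBK1-WT ∆control libraries and 90.2, 67 and 68.2 CPM after R837, and TBK1-WT ∆IKKe measured 82.8, 86.7 and 92 and then 80.1, 70.7 and 71.3 CPM. For Ern1, TBK1-cKD ∆control gave 83.2, 81.7 and 85.1 CPM untreated and 74, 65.3 and 73.3 CPM after R837, and the TBK1-cKD ∆IKKe-labelled libraries gave 87.2, 88.8 and 87 and then 102, 107 and 123 CPM. Ern1 levels of R837 libraries lay above the untreated ones in the TBK1-cKD ∆IKKe-labelled libraries, and below the untreated ones in TBK1-WT ∆IKKe and TBK1-cKD ∆control and within overlapping ranges in TBK1-WT ∆control. Ern1 log2 changes with SE were -0.17 ± 0.09 (adjusted p = 0.123), -0.24 ± 0.09 (adjusted p = 0.028), -0.23 ± 0.09 (adjusted p = 0.0306) and 0.34 ± 0.09 (adjusted p = 0.00269) in that order of genotypes. In TBK1-WT ∆IKKe the call was lost without untreated replicate 2 (-0.24) or 3 (-0.19), or R837 replicate 2 (-0.20) or 3 (-0.21), and in TBK1-cKD ∆control without untreated replicate 1 (-0.23) or 3 (-0.22), or R837 replicate 2 (-0.18). Fitted with nuclear RNA as a term, they turned to 0.09 and 0.10, while the rise in those labelled TBK1-cKD ∆IKKe was 0.55. The change in TBK1-WT ∆control was -0.27 and passed without R837 replicate 1.

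Xbp1, the mRNA that IRE1 splices, rose in all genotypes. Xbp1 stood at 149, 146 and 152 CPM untreated and 177, 227 and 237 CPM after R837 in TBK1-WT ∆control, and at 148, 146 and 152 against 231, 236 and 243 CPM in TBK1-WT ∆IKKe. Xbp1 in TBK1-cKD ∆control stood at 145, 156 and 154 against 193, 195 and 201 CPM, and in the TBK1-cKD ∆IKKe-labelled libraries at 136, 134 and 138 against 233, 221 and 178 CPM. Xbp1 levels of R837 libraries lay above the untreated ones in all 4 genotypes. Xbp1 log2 changes with SE were 0.52 ± 0.09 (adjusted p = 3.23e-05), 0.67 ± 0.09 (adjusted p = 1.03e-06), 0.37 ± 0.09 (adjusted p = 0.000953) and 0.63 ± 0.09 (adjusted p = 2.53e-06) in that order of genotypes. Once nuclear RNA was a term of the fit, the changes were 0.26, 0.30, 0.00 and 0.37, and the third no longer passed. Counts per gene do not separate the spliced form.

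ER chaperones and folding factors went both ways. Of 10, 2 rose and 5 fell in TBK1-WT ∆control, 2 and 5 in TBK1-WT ∆IKKe, 2 and 7 in TBK1-cKD ∆control, and 3 and 3 in those labelled TBK1-cKD ∆IKKe. Of all genes, 30.6% rose and 32% fell in TBK1-WT ∆control, and 32.4% and 37.8% in TBK1-WT ∆IKKe. The shares were 31.6% and 37.5% in TBK1-cKD ∆control and 31.6% and 34.8% in those labelled TBK1-cKD ∆IKKe, whose count was near them. Hspa5 encodes BiP, the main ER chaperone and the regulator of all 3 sensors. Hspa5 measured 982, 948 and 999 CPM in untreated TBK1-WT ∆control libraries and 876, 842 and 864 CPM after R837, and TBK1-WT ∆IKKe measured 984, 924 and 941 and then 789, 818 and 862 CPM. For Hspa5, TBK1-cKD ∆control gave 992, 973 and 934 CPM untreated and 720, 682 and 829.7 CPM after R837, and the TBK1-cKD ∆IKKe-labelled libraries gave 845, 845 and 871 and then 1044, 983 and 1018 CPM. Hspa5 levels of R837 libraries lay above the untreated ones in the TBK1-cKD ∆IKKe-labelled libraries, and below the untreated ones in TBK1-WT ∆control, TBK1-WT ∆IKKe and TBK1-cKD ∆control. Hspa5 log2 changes with SE were -0.18 ± 0.06 (adjusted p = 0.012), -0.21 ± 0.06 (adjusted p = 0.00456), -0.38 ± 0.06 (adjusted p = 1.32e-05) and 0.25 ± 0.06 (adjusted p = 0.00103) in that order of genotypes. Hspa5 thus fell in the first 3 genotypes and rose in those labelled TBK1-cKD ∆IKKe. The fall in TBK1-WT ∆control was lost without R837 replicate 1 (-0.14).

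Hsp90b1, the ER member of the HSP90 family, whose window holds ERSE letters as that of Hspa5 does, stood apart in the 2 libraries of high nuclear RNA. After R837 it read 658, 384 and 405 CPM in TBK1-WT ∆control and 428, 426 and 712 CPM in those labelled TBK1-cKD ∆IKKe. R837 libraries of the other genotypes gave 356 to 438 CPM, and the untreated ones 602 to 789 CPM. Hsp90b1 fell in TBK1-WT ∆control (-0.64 ± 0.17 SE, adjusted p = 0.00269), TBK1-WT ∆IKKe (-0.76 ± 0.17 SE, adjusted p = 0.000534) and TBK1-cKD ∆control (-0.98 ± 0.17 SE, adjusted p = 3.8e-05), and gave -0.23, which did not pass, in those labelled TBK1-cKD ∆IKKe. Without the library of high nuclear RNA the last was -0.52 and passed. Under the nuclear RNA term the 4 changes were -0.19, -0.02, -0.24 and 0.21, of which the second did not pass.

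Sdf2l1, a partner of BiP, and the disulfide isomerase Pdia4 fell in all genotypes. Sdf2l1 stood at 82.4, 84.6 and 91.5 CPM untreated and 57.3, 57.4 and 56.7 CPM after R837 in TBK1-WT ∆control, and at 87.3, 88.8 and 81.5 against 47, 49.1 and 54.9 CPM in TBK1-WT ∆IKKe. Sdf2l1 in TBK1-cKD ∆control stood at 94.4, 94.2 and 88.1 against 45.1, 51.3 and 50.5 CPM, and in the TBK1-cKD ∆IKKe-labelled libraries at 71.3, 69 and 74.1 against 40.3, 38.5 and 42.1 CPM. Sdf2l1 levels of R837 libraries lay below the untreated ones in all 4 genotypes, with log2 changes of -0.91 to -0.59 (SE 0.07, adjusted p from 1.18e-10 to 9.26e-08). Pdia4 measured 117, 119.7 and 123 CPM in untreated TBK1-WT ∆control libraries and 96.5, 91.4 and 91.3 CPM after R837, and TBK1-WT ∆IKKe measured 119, 109.5 and 115 and then 86.4, 80.8 and 94.5 CPM. For Pdia4, TBK1-cKD ∆control gave 119, 116 and 112 CPM untreated and 77.4, 71.6 and 81.6 CPM after R837, and the TBK1-cKD ∆IKKe-labelled libraries gave 95.4, 96.7 and 98 and then 77, 74 and 84.7 CPM. Pdia4 levels of R837 libraries lay below the untreated ones in all 4 genotypes, with log2 changes of -0.59 to -0.30 (SE 0.06, adjusted p from 5.86e-08 to 0.000293). For Sdf2l1 the library of high nuclear RNA lay between its mates in TBK1-WT ∆control and just above them in those labelled TBK1-cKD ∆IKKe.

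Pdia6, another disulfide isomerase, moved less. Pdia6 stood at 215, 211 and 229 CPM untreated and 199, 193 and 198 CPM after R837 in TBK1-WT ∆control, and at 223, 221 and 217 against 184, 193 and 206 CPM in TBK1-WT ∆IKKe. Pdia6 in TBK1-cKD ∆control stood at 222, 226 and 211 against 159, 163 and 173 CPM, and in the TBK1-cKD ∆IKKe-labelled libraries at 175, 172 and 184 against 177, 172 and 192 CPM. Pdia6 levels of R837 libraries lay below the untreated ones in TBK1-WT ∆control, TBK1-WT ∆IKKe and TBK1-cKD ∆control, and within overlapping ranges in the TBK1-cKD ∆IKKe-labelled libraries. It fell in TBK1-WT ∆control (-0.15 ± 0.06 SE, adjusted p = 0.0217), TBK1-WT ∆IKKe (-0.18 ± 0.06 SE, adjusted p = 0.00683) and TBK1-cKD ∆control (-0.41 ± 0.06 SE, adjusted p = 1.35e-06) and gave 0.03 ± 0.06 SE, adjusted p = 0.7 in those labelled TBK1-cKD ∆IKKe. The first was lost without untreated replicate 3 (-0.11), or R837 replicate 1 (-0.11) or 2 (-0.14), and the first 2 also with the nuclear RNA term (-0.10 and -0.10) and with no filter on low counts (-0.15 and -0.17).

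Manf and Dnajb9, an ER-stress-induced secreted factor and an ER co-chaperone that restrains IRE1, rose in all genotypes. Manf measured 67, 68.8 and 71.7 CPM in untreated TBK1-WT ∆control libraries and 89.3, 107 and 112 CPM after R837, and TBK1-WT ∆IKKe measured 66.8, 65 and 64.6 and then 105, 109 and 114 CPM. For Manf, TBK1-cKD ∆control gave 76.3, 76.9 and 70.3 CPM untreated and 91.7, 104 and 100.1 CPM after R837, and the TBK1-cKD ∆IKKe-labelled libraries gave 57.5, 61 and 61.6 and then 99.8, 97.3 and 78.3 CPM. Manf levels of R837 libraries lay above the untreated ones in all 4 genotypes, with log2 changes of 0.40 to 0.74 (SE 0.09, adjusted p from 1.64e-07 to 0.000314). Fitted with nuclear RNA as a term, Manf passed in 3 genotypes (0.36, 0.42 and 0.40) and not in TBK1-cKD ∆control (0.09). Dnajb9 ran from 23.4 to 27.8 CPM untreated and from 28.1 to 46.3 CPM after R837, with log2 changes of 0.47 to 0.71 (SE 0.13, adjusted p from 5.4e-05 to 0.00296). With the term its change was 0.15, 0.21 and 0.03 in the first 3 genotypes, none of which passed, and 0.40 in those labelled TBK1-cKD ∆IKKe.

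Dnajc3, which encodes the PERK inhibitor p58IPK, barely moved. Dnajc3 stood at 130, 127 and 126 CPM untreated and 135, 119 and 127 CPM after R837 in TBK1-WT ∆control, and at 124, 121 and 122 against 122, 123 and 128 CPM in TBK1-WT ∆IKKe. Dnajc3 in TBK1-cKD ∆control stood at 136, 136 and 131 against 121, 124 and 121 CPM, and in the TBK1-cKD ∆IKKe-labelled libraries at 119.8, 119 and 125 against 102, 102 and 120 CPM. Dnajc3 levels of R837 libraries lay below the untreated ones in TBK1-cKD ∆control, and within overlapping ranges in TBK1-WT ∆control, TBK1-WT ∆IKKe and the TBK1-cKD ∆IKKe-labelled libraries. Small falls passed in TBK1-cKD ∆control (-0.14 ± 0.06 SE, adjusted p = 0.0392) and those labelled TBK1-cKD ∆IKKe (-0.16 ± 0.06 SE, adjusted p = 0.0171). The first was lost without untreated replicate 1 (-0.13) or 2 (-0.13), or R837 replicate 1 (-0.13) or 3 (-0.13), and with RLE scaling (-0.12). The second was lost without untreated replicate 3 (-0.14), or R837 replicate 1 (-0.13) or 2 (-0.12).

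Calr and Creld2 complete the chaperones. Calr, a calcium-binding lectin chaperone, ran from 842 to 1120 CPM over all 24 libraries, with log2 changes of -0.12 to 0.06, none of which passed. Once nuclear RNA was a term of the fit, these were -0.27, -0.22, -0.40 and -0.14, and all passed. Creld2 ran from 19.9 to 41.2 CPM and fell in TBK1-cKD ∆control (-0.53 ± 0.14 SE, adjusted p = 0.00249), where R837 replicate 2 was its lowest library, and that call was lost with the nuclear RNA term (-0.11).

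Both ER-associated degradation genes responded, in opposite directions. Herpud1, which organises the degradation complex in the ER membrane and carries CARE and ERSE-II letters, rose. Herpud1 measured 33.3, 29.8 and 31 CPM in untreated TBK1-WT ∆control libraries and 68, 80.7 and 81.6 CPM after R837, and TBK1-WT ∆IKKe measured 32.8, 29.6 and 27.1 and then 67.8, 75.5 and 78.7 CPM. For Herpud1, TBK1-cKD ∆control gave 27.2, 29.1 and 28.8 CPM untreated and 52.1, 54 and 58.8 CPM after R837, and the TBK1-cKD ∆IKKe-labelled libraries gave 30.9, 31.5 and 30.4 and then 39.9, 39.4 and 34.4 CPM. Herpud1 levels of R837 libraries lay above the untreated ones in all 4 genotypes. Herpud1 log2 changes with SE were 1.29 ± 0.09 (adjusted p = 2.95e-11), 1.31 ± 0.09 (adjusted p = 2.2e-11), 0.96 ± 0.09 (adjusted p = 4.06e-09) and 0.29 ± 0.09 (adjusted p = 0.00507) in that order of genotypes. The rise in those labelled TBK1-cKD ∆IKKe was the smallest and did not pass with the nuclear RNA term (0.14). Edem1, a lectin that hands misfolded glycoproteins to degradation, fell. Edem1 stood at 404, 404 and 386 CPM untreated and 268, 349.8 and 345 CPM after R837 in TBK1-WT ∆control, and at 386, 395 and 411 against 338, 350.2 and 343 CPM in TBK1-WT ∆IKKe. Edem1 in TBK1-cKD ∆control stood at 386, 384 and 376 against 320.1, 313 and 312 CPM, and in the TBK1-cKD ∆IKKe-labelled libraries at 353, 357 and 359 against 311, 313 and 242 CPM. Edem1 levels of R837 libraries lay below the untreated ones in all 4 genotypes, with log2 changes of -0.31 to -0.21 (SE 0.09, adjusted p from 0.00351 to 0.036). The 2 libraries of high nuclear RNA were the lowest of their groups, and the fall in TBK1-WT ∆control was lost without R837 replicate 1 (-0.14). In TBK1-WT ∆IKKe it was lost without untreated replicate 2 (-0.21) or 3 (-0.18), or R837 replicate 1 (-0.20), 2 (-0.22) or 3 (-0.21), and in those labelled TBK1-cKD ∆IKKe it was -0.19, still called, without R837 replicate 3.

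Further genes of the same pathways, 125 in 6 lists of which 120 were tested, were counted in the same way. In TBK1-WT ∆control 68 rose and 16 fell (56.7% and 13.3%, against 30.6% and 32% of all genes; median log2 change 0.36), and in TBK1-WT ∆IKKe 70 and 18 (58.3% and 15%, against 32.4% and 37.8%; 0.42). TBK1-cKD ∆control had 63 and 20 (52.5% and 16.7%, against 31.6% and 37.5%; 0.29), and those labelled TBK1-cKD ∆IKKe 71 and 23 (59.2% and 19.2%, against 31.6% and 34.8%; 0.34). A fit with nuclear RNA as a term was chosen for these lists after seeing the data. In it 63 rose and 23 fell in TBK1-WT ∆control (52.5% and 19.2%, against 29.8% and 30.1% of all genes). TBK1-WT ∆IKKe had 64 and 23 (53.3% and 19.2%, against 27.7% and 26.5%), and TBK1-cKD ∆control 51 and 24 (42.5% and 20%, against 26.3% and 26.3%). Those labelled TBK1-cKD ∆IKKe had 65 and 29 (54.2% and 24.2%, against 32.1% and 33.6%). The medians were 0.19, 0.26, 0.12 and 0.25 in that order of genotypes. In TBK1-WT ∆control the amino acid list had 10 of 15 up and 2 down (median 0.78), led by Slc7a11 (5.75), the light chain of the cystine importer, and the glycine transporter Slc6a9 (2.85), with Slc1a5 (-0.66) and Gpt2 (-0.43) lowest. Aminoacyl tRNA synthetases had 14 of 19 up and 1 down (median 0.26), with Aars1 at 0.94 and Wars1 at 0.65. Stress effectors had 10 of 18 up and 4 down (median 0.76), with Stc2 (3.67) and Cebpd (3.44) highest and Zfp36l1 (-2.06) and Gdf15 (-1.60) lowest. With the nuclear RNA term the amino acid list had 7 up and 3 down (median 0.59). The synthetases then had 13 up and 2 down (median 0.19), and the stress effectors 11 up and 6 down (median 0.91).

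Other sensors of eIF2 and ER stress had 5 of 15 up and 4 down (33.3% and 26.7%, near the shares of all genes; median 0.10), with Atf6b (0.93) and Ppp1r15b (0.86) highest and the GCN2 gene Eif2ak4 (-1.51) and Crebrf (-0.78) lowest. Further ER chaperones and folding enzymes had 8 of 20 up and 4 down (40% and 20%; median 0.13, or -0.039 with the nuclear RNA term), with P4hb (0.78) and Txndc11 (0.64) highest and Ero1b (-0.44) and Sil1 (-0.40) lowest. Genes of ER-associated degradation and translocation had 21 of 33 up and 1 down (median 0.46, or 0.225 with the nuclear RNA term). Sec61g (1.30) and Sec24d (1.15) were highest, and Derl3 (-1.68) was the one that fell. Each of these named genes passed the test, with R837 and untreated libraries that did not overlap.

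In untreated cells, the comparison of genotypes asks whether the kinases alter these genes without a stimulus. The 3 comparisons share the TBK1-WT ∆control libraries. For TBK1-WT ∆IKKe, edgeR's quasi-likelihood test called 0 of 34 genes and 0% of all genes, 0 of 34 had an unadjusted p under 0.05, and DESeq2 called 0. Ikbke, whose level was lower in these libraries, was tested and not called by edgeR either. The lack of calls thus does not show that the 34 were unchanged. TBK1-cKD ∆control had 2 called (all genes 5.05%, 2.4% higher and 2.65% lower). Atf3 was higher, with 472, 531 and 509.8 CPM against 388, 414 and 395 CPM (log2 difference 0.34 ± 0.10 SE, adjusted p = 0.0424), and Atf6 was lower (-0.21 ± 0.05 SE, adjusted p = 0.026). The Atf3 call was lost without TBK1-WT ∆control replicate 1 (0.32), 2 (0.36) or 3 (0.33), or TBK1-cKD ∆control replicate 2 (0.30) or 3 (0.33). That of Atf6 was lost without TBK1-WT ∆control replicate 1 (-0.21), 2 (-0.21) or 3 (-0.21), or TBK1-cKD ∆control replicate 2 (-0.19) or 3 (-0.21).

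In the untreated libraries labelled TBK1-cKD ∆IKKe, 10 were called, 4 higher and 6 lower (all genes 13.6%, 8.52% higher and 5.1% lower). Nupr1 had the largest difference, at 13.8, 13.4 and 12.8 CPM against 4.56, 4.96 and 4.55 CPM in TBK1-WT ∆control (1.503 ± 0.18 SE, adjusted p = 2.8e-06), and its groups did not overlap. Ddit3 was higher too (0.57 ± 0.16 SE, adjusted p = 0.0211), with 26.5, 27.1 and 27.1 CPM against 17.3, 17.8 and 19.3 CPM, as were Vldlr (0.91 ± 0.27 SE, adjusted p = 0.0224) and Ppp1r15a (0.53 ± 0.16 SE, adjusted p = 0.0355). Lower were the chaperones and folding enzymes Pdia4 (-0.31 ± 0.06 SE, adjusted p = 0.00128), Pdia6 (-0.30 ± 0.06 SE, adjusted p = 0.000484), Sdf2l1 (-0.27 ± 0.07 SE, adjusted p = 0.0063) and Hspa5 (-0.19 ± 0.06 SE, adjusted p = 0.034), and also Mthfd2 (-0.27 ± 0.09 SE, adjusted p = 0.0391) and Atf6 (-0.26 ± 0.05 SE, adjusted p = 0.00213). Mthfd2 lost its call without TBK1-WT ∆control replicate 1 (-0.28), 2 (-0.24) or 3 (-0.29), or labelled TBK1-cKD ∆IKKe replicate 1 (-0.23), 2 (-0.31) or 3 (-0.28). Ppp1r15a lost it without TBK1-WT ∆control replicate 1 (0.53), 2 (0.47) or 3 (0.58), or labelled TBK1-cKD ∆IKKe replicate 1 (0.53), 2 (0.52) or 3 (0.53). Hspa5 lost it without TBK1-WT ∆control replicate 1 (-0.19), 2 (-0.21) or 3 (-0.18), or labelled TBK1-cKD ∆IKKe replicate 1 (-0.18), 2 (-0.18) or 3 (-0.21). Ddit3 lost it without TBK1-WT ∆control replicate 1 (0.54) or 2 (0.56), or labelled TBK1-cKD ∆IKKe replicate 1 (0.58), 2 (0.56) or 3 (0.56), and Vldlr without TBK1-WT ∆control replicate 1 (0.81) or 3 (0.90), or labelled TBK1-cKD ∆IKKe replicate 2 (0.93) or 3 (0.83). In a fit of the 6 libraries alone, 26 of the 34 were called (6 higher and 20 lower), and with nuclear RNA as a term 21 (5 higher and 16 lower). The shares of all genes called in these fits were not counted, so the counts cannot be read as particular to the 34. The median log2 difference of the 34 was -0.141 both with and without the term. All untreated libraries are of high nuclear RNA, so the term cancels from this comparison. The equal medians are therefore no check on nuclear RNA.

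After R837, genotype differences were again measured against the same TBK1-WT ∆control libraries. TBK1-WT ∆IKKe had 1 gene called (all genes 1.85%, 1.14% higher). This was Nupr1, at 32.6, 27.8 and 31 CPM against 23.1, 18.9 and 16.8 CPM, a log2 difference of 0.63 ± 0.16 SE, adjusted p = 0.0496 between groups that did not overlap. The call was lost without TBK1-WT ∆control replicate 2 (0.60) or 3 (0.54), or TBK1-WT ∆IKKe replicate 1 (0.58), 2 (0.69) or 3 (0.62), and in a fit of the 6 libraries alone (0.62).

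TBK1-cKD ∆control had 8 genes called after R837, all lower (all genes 8.89%, 4.48% higher and 4.41% lower). Nupr1 read 12.8, 6.71 and 12.9 CPM against 23.1, 18.9 and 16.8 CPM (-0.84 ± 0.17 SE, adjusted p = 0.00308), and Herpud1 52.1, 54 and 58.8 against 68, 80.7 and 81.6 CPM (-0.48 ± 0.09 SE, adjusted p = 0.000884). The groups of both genes did not overlap. Atf4 was lower at 211, 184 and 213 CPM against 292, 241 and 238 CPM (-0.34 ± 0.09 SE, adjusted p = 0.0175). Atf6 (-0.27 ± 0.05 SE, adjusted p = 0.00264), Pdia4 (-0.28 ± 0.06 SE, adjusted p = 0.00845), Pdia6 (-0.25 ± 0.06 SE, adjusted p = 0.0058), Sdf2l1 (-0.22 ± 0.07 SE, adjusted p = 0.0388) and Hspa5 (-0.21 ± 0.06 SE, adjusted p = 0.0317) made up the rest. Atf4 lost its call without TBK1-WT ∆control replicate 1 (-0.25), or TBK1-cKD ∆control replicate 2 (-0.28). Hspa5 lost it without TBK1-WT ∆control replicate 1 (-0.20) or 3 (-0.21), or TBK1-cKD ∆control replicate 1 (-0.19) or 2 (-0.15), and Sdf2l1 without TBK1-WT ∆control replicate 1 (-0.23), 2 (-0.22) or 3 (-0.23), or TBK1-cKD ∆control replicate 1 (-0.17). In a fit of the 6 libraries alone 0 of the 8 passed, with log2 differences that barely moved (Nupr1 -0.86, Herpud1 -0.48). Without the 2 libraries of high nuclear RNA, 2 were higher and 12 lower, and with nuclear RNA as a term 1 and 12, with the shares of all genes not counted.

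The TBK1-cKD ∆IKKe-labelled libraries had 17 genes called after R837, 7 higher and 10 lower (all genes 32.2%, 16.7% higher and 15.5% lower). Nupr1 was the highest, at 71.5, 72.7 and 83.3 CPM against 23.1, 18.9 and 16.8 CPM (1.95 ± 0.17 SE, adjusted p = 6.24e-09), with no overlap. Ppp1r15a read 37.6, 37.3 and 57.3 CPM against 32.1, 20.5 and 19.4 CPM (0.87 ± 0.16 SE, adjusted p = 0.000215). Its groups did not overlap either, and in each the library of high nuclear RNA was the highest. Ddit3 read 15.8, 17.4 and 21.3 CPM against 14.6, 8.08 and 9.15 CPM (0.77 ± 0.17 SE, adjusted p = 0.00122), again apart. Atf3 (0.57 ± 0.10 SE, adjusted p = 7.11e-05), Ern1 (0.56 ± 0.09 SE, adjusted p = 5.2e-05), Slc3a2 (0.45 ± 0.07 SE, adjusted p = 3.28e-05) and Hspa5 (0.24 ± 0.06 SE, adjusted p = 0.00367) were higher as well.

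Herpud1 was the lowest of the 10 that lay lower in those libraries, at 39.9, 39.4 and 34.4 CPM against 68, 80.7 and 81.6 CPM (-1.02 ± 0.09 SE, adjusted p = 5.3e-09), with a gap between the groups. Slc7a5 (-0.67 ± 0.16 SE, adjusted p = 0.00273), Chac1 (-0.65 ± 0.24 SE, adjusted p = 0.039) and Aldh18a1 (-0.57 ± 0.12 SE, adjusted p = 0.00109) were lower among ATF4 targets. Atf6 (-0.53 ± 0.06 SE, adjusted p = 1.09e-07) and Eif2ak3 (-0.47 ± 0.11 SE, adjusted p = 0.0018) were lower among the sensors. Sdf2l1 (-0.50 ± 0.07 SE, adjusted p = 3.44e-06), Pdia4 (-0.24 ± 0.06 SE, adjusted p = 0.00456), Dnajc3 (-0.23 ± 0.06 SE, adjusted p = 0.00397) and Cebpg (-0.22 ± 0.06 SE, adjusted p = 0.00764) complete the list. Chac1 lost its call without TBK1-WT ∆control replicate 2 (-0.64) or 3 (-0.64), or labelled TBK1-cKD ∆IKKe replicate 1 (-0.69) or 3 (-0.54), and without both libraries of high nuclear RNA (-0.55), while Slc7a5 was -0.44, still called, without labelled replicate 3. A fit of the 6 libraries alone called 7 of the 34, Nupr1, Atf3 and Slc3a2 as higher and Herpud1, Atf6, Sdf2l1 and Chac1 as lower. The share of all genes called in that fit was not counted.

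**Figure D3:**
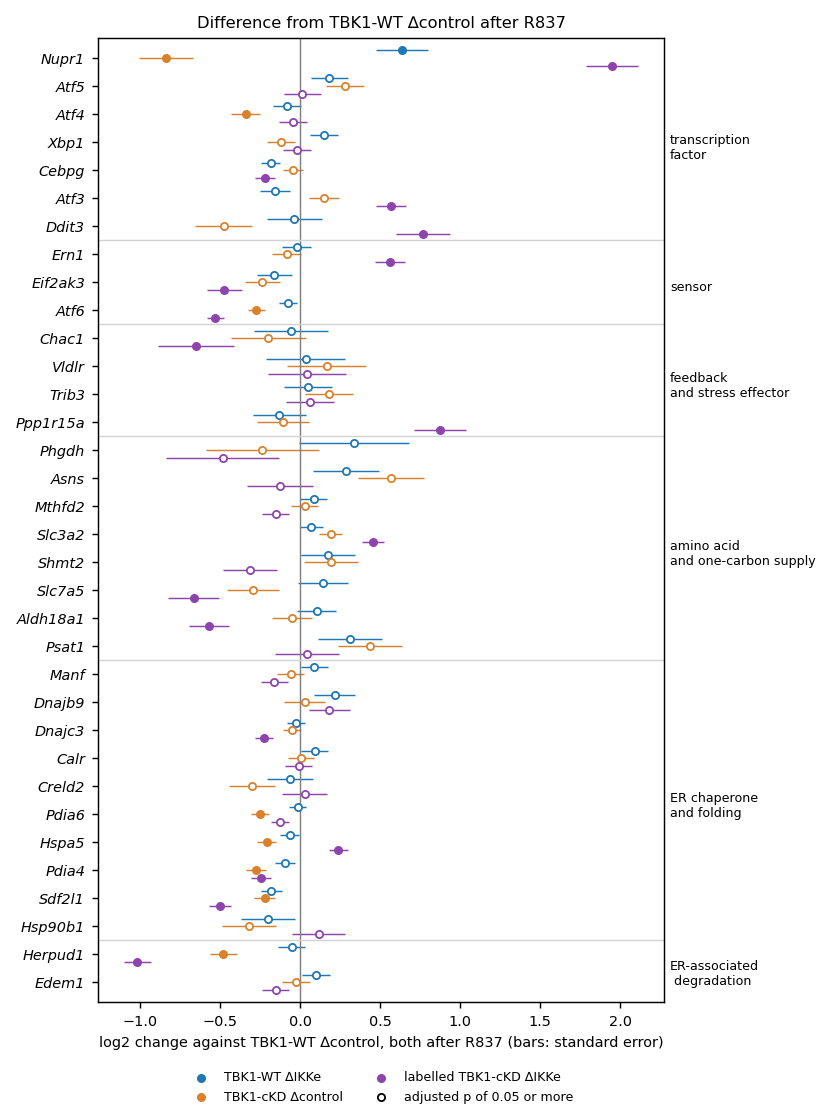
Log2 difference of each of the 34 genes from TBK1-WT ∆control after R837 (horizontal axis) in the 3 other genotypes, grouped by role. Bars are 1 standard error from the fit over all 24 libraries (3 per group). Open points mark an adjusted p of 0.05 or more. Nupr1 lies furthest to the right (1.95) and Herpud1 furthest to the left (-1.02) in the TBK1-cKD ∆IKKe-labelled libraries.

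Against the other altered genotypes the TBK1-cKD ∆IKKe-labelled libraries also differed in many of these genes. Compared with TBK1-cKD ∆control after R837, 16 were called, 8 higher and 8 lower (all genes 34.5%, 18.3% higher and 16.2% lower). Higher were Nupr1 (2.79 ± 0.17 SE, adjusted p = 1.22e-10), Ddit3 (1.25 ± 0.18 SE, adjusted p = 1.22e-05), Ppp1r15a (0.98 ± 0.16 SE, adjusted p = 8.25e-05), Ern1 (0.65 ± 0.09 SE, adjusted p = 1.29e-05), Hspa5 (0.45 ± 0.06 SE, adjusted p = 5.75e-06), Atf3 (0.42 ± 0.10 SE, adjusted p = 0.00169), Atf4 (0.30 ± 0.09 SE, adjusted p = 0.0122) and Slc3a2 (0.26 ± 0.07 SE, adjusted p = 0.00661). Lower were Asns (-0.69), Herpud1 (-0.54), Aldh18a1 (-0.52), Shmt2 (-0.51), Sdf2l1 (-0.28), Atf6 (-0.26), Dnajc3 (-0.17) and Cebpg (-0.17). Atf4 was lost without TBK1-cKD ∆control replicate 2 (0.23), or labelled TBK1-cKD ∆IKKe replicate 3 (0.17), Shmt2 without TBK1-cKD ∆control replicate 1 (-0.46), or labelled TBK1-cKD ∆IKKe replicate 3 (-0.27), and Slc3a2 without labelled TBK1-cKD ∆IKKe replicate 2 (0.18). Without labelled replicate 3 Asns was -0.39 and Aldh18a1 -0.34, both still called. Cebpg was lost without TBK1-cKD ∆control replicate 1 (-0.17) or 2 (-0.16), or labelled TBK1-cKD ∆IKKe replicate 1 (-0.17) or 2 (-0.14), and Dnajc3 without TBK1-cKD ∆control replicate 2 (-0.16), or labelled TBK1-cKD ∆IKKe replicate 1 (-0.14) or 2 (-0.14). In a fit of the 6 libraries alone 6 were called, Nupr1 (2.79), Ddit3 (1.22), Ppp1r15a (0.97), Ern1 (0.63) and Hspa5 (0.43) as higher and Herpud1 (-0.55) as lower. The share of all genes called in that fit was not counted.

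Compared with TBK1-WT ∆IKKe after R837, 18 were called, 7 higher and 11 lower (all genes 30.6%, 16.5% higher and 14.2% lower). Nupr1 (1.31 ± 0.16 SE, adjusted p = 1.93e-06), Ppp1r15a (1.004 ± 0.16 SE, adjusted p = 6.54e-05), Ddit3 (0.80 ± 0.17 SE, adjusted p = 0.00104), Atf3 (0.73 ± 0.10 SE, adjusted p = 4.71e-06), Ern1 (0.58 ± 0.09 SE, adjusted p = 4.41e-05), Slc3a2 (0.39 ± 0.07 SE, adjusted p = 0.000258) and Hspa5 (0.30 ± 0.06 SE, adjusted p = 0.000513) were higher. Herpud1 (-0.97), Slc7a5 (-0.81), Aldh18a1 (-0.68), Shmt2 (-0.49), Atf6 (-0.46), Sdf2l1 (-0.32), Eif2ak3 (-0.31), Edem1 (-0.25), Manf (-0.25), Mthfd2 (-0.24) and Dnajc3 (-0.20) were lower. Several of the calls on lower genes were lost on leaving out any of several single libraries, often with little change in the difference itself. Leaving out labelled replicate 3 shrank the differences of Shmt2, Mthfd2, Edem1 and Manf most. Shmt2 was lost without TBK1-WT ∆IKKe replicate 1 (-0.51), 2 (-0.53) or 3 (-0.42), or labelled TBK1-cKD ∆IKKe replicate 3 (-0.25). Mthfd2 was lost without TBK1-WT ∆IKKe replicate 1 (-0.22) or 3 (-0.23), or labelled TBK1-cKD ∆IKKe replicate 1 (-0.24) or 3 (-0.13), and was -0.36 without labelled replicate 2. Edem1 was lost without TBK1-WT ∆IKKe replicate 1 (-0.27), 2 (-0.24) or 3 (-0.26), or labelled TBK1-cKD ∆IKKe replicate 3 (-0.14), and Manf without TBK1-WT ∆IKKe replicate 2 (-0.25) or 3 (-0.22), or labelled TBK1-cKD ∆IKKe replicate 3 (-0.15). Eif2ak3 was lost without TBK1-WT ∆IKKe replicate 1 (-0.31) or 3 (-0.27), or labelled TBK1-cKD ∆IKKe replicate 1 (-0.21) or 2 (-0.32), and Dnajc3 without TBK1-WT ∆IKKe replicate 3 (-0.18), or labelled TBK1-cKD ∆IKKe replicate 1 (-0.16) or 2 (-0.16). In a fit of the 6 libraries alone, the 7 higher genes were called, but Shmt2, Eif2ak3, Edem1, Manf, Mthfd2 and Dnajc3 were not.

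The test of the response differences asks whether the R837 response itself depended on genotype. All 3 differences share the TBK1-WT ∆control response. For TBK1-WT ∆IKKe, edgeR's quasi-likelihood test called 0 of 34 (all genes 0.245%), 0 of 34 had an unadjusted p under 0.05, and DESeq2 called 0. For TBK1-cKD ∆control, 1 was called (all genes 0.879%, 0.204% negative). The log2 response of Atf4 there was 0.17 against 0.69, a difference of -0.53 ± 0.12 SE, adjusted p = 0.0482. This call just passed, and held in 2 of the 12 fits that left out 1 library, those without TBK1-WT ∆control R837 replicate 2 (-0.57) or 3 (-0.58). It was lost without TBK1-WT ∆control untreated replicate 1 (-0.52), 2 (-0.53) or 3 (-0.54), TBK1-WT ∆control R837 replicate 1 (-0.43), TBK1-cKD ∆control untreated replicate 1 (-0.54), 2 (-0.51) or 3 (-0.53), or TBK1-cKD ∆control R837 replicate 1 (-0.56), 2 (-0.46) or 3 (-0.56). Without both libraries of high nuclear RNA it was -0.43 and passed, and in a fit of the 12 libraries concerned alone it was -0.53 and did not. With nuclear RNA as a term 5 were called, Atf4 (-0.41), Xbp1 (-0.26), Sdf2l1 (-0.31), Herpud1 (-0.41) and Manf (-0.27), with the share of all genes not counted.

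In the TBK1-cKD ∆IKKe-labelled libraries, 5 response differences passed, 3 positive and 2 negative (all genes 17.3%, 7.38% and 9.96%). Herpud1 rose by 0.29 there against 1.29 in TBK1-WT ∆control (-0.998 ± 0.12 SE, adjusted p = 2.94e-06). The Ern1 response was 0.34 against -0.17 (0.51 ± 0.13 SE, adjusted p = 0.00827) and that of Hspa5 0.25 against -0.18 (0.43 ± 0.09 SE, adjusted p = 0.000828). Slc3a2 rose by 1.27 against 0.91 (0.36 ± 0.10 SE, adjusted p = 0.0158), and the Atf6 response was -0.64 against -0.37 (-0.28 ± 0.08 SE, adjusted p = 0.0146). Nupr1, whose level differed most, did not pass as a response difference (0.45 ± 0.24 SE, adjusted p = 0.254). The Slc3a2 call was lost without TBK1-WT ∆control untreated replicate 3 (0.32), TBK1-WT ∆control R837 replicate 1 (0.28), or labelled TBK1-cKD ∆IKKe R837 replicate 2 (0.27). It was also lost in a fit of the 12 libraries of these groups alone (0.36). With nuclear RNA as a term 15 were called, 8 positive and 7 negative, and without the 2 libraries of high nuclear RNA 11. How many of all genes passed in these fits was not counted.

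The TBK1 by IKKe interaction asks whether the labelled combination differs after R837 from the sum of the single alterations. It passed for 11 genes, 7 positive and 4 negative (all genes 22.2%, 13.3% and 8.9%). Nupr1 (2.15 ± 0.23 SE, adjusted p = 2.27e-06), Ddit3 (1.28 ± 0.25 SE, adjusted p = 0.00111), Ppp1r15a (1.11 ± 0.23 SE, adjusted p = 0.00212), Ern1 (0.67 ± 0.13 SE, adjusted p = 0.00118), Atf3 (0.58 ± 0.14 SE, adjusted p = 0.00491), Hspa5 (0.51 ± 0.09 SE, adjusted p = 0.00024) and Atf4 (0.38 ± 0.12 SE, adjusted p = 0.0343) were above the sum. Asns (-0.98 ± 0.29 SE, adjusted p = 0.0223), Shmt2 (-0.68 ± 0.24 SE, adjusted p = 0.0468), Aldh18a1 (-0.62 ± 0.18 SE, adjusted p = 0.0175) and Herpud1 (-0.48 ± 0.12 SE, adjusted p = 0.0074) were below it. Both groups with a library of high nuclear RNA enter with the same sign. Without those 2 libraries Ppp1r15a was 0.62, Atf3 0.38, Asns -0.48 and Herpud1 -0.32, all still called, whereas Atf4 (0.17), Shmt2 (-0.24) and Aldh18a1 (-0.35) were not. Asns lost its call without TBK1-WT ∆control replicate 1 (-0.80), and Aldh18a1 without TBK1-WT ∆control replicate 1 (-0.54). Atf4 lost it without TBK1-WT ∆control replicate 1 (0.28), TBK1-WT ∆IKKe replicate 2 (0.37) or 3 (0.36), TBK1-cKD ∆control replicate 2 (0.32), or labelled TBK1-cKD ∆IKKe replicate 3 (0.25). Shmt2 lost it without TBK1-WT ∆control replicate 1 (-0.49), TBK1-WT ∆IKKe replicate 1 (-0.70), 2 (-0.72) or 3 (-0.61), TBK1-cKD ∆control replicate 1 (-0.63), 2 (-0.73) or 3 (-0.68), or labelled TBK1-cKD ∆IKKe replicate 3 (-0.44). In a fit of the 12 R837 libraries alone, 6 of the 7 positive calls held and 0 of the 4 negative ones, and Herpud1 (-0.48), Asns (-0.98), Aldh18a1 (-0.62), Shmt2 (-0.68) and Atf4 (0.38) did not pass. With nuclear RNA as a term Atf4 (0.15) and Shmt2 (-0.26) did not pass, while Asns (-0.50), Aldh18a1 (-0.37) and Herpud1 (-0.34) did.

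The 2 R837 libraries of high nuclear RNA differed from their group mates in most of the 34 genes, and in the same way. In both groups the library lay above both mates for 14 genes and below both for 16, with 0 genes on opposite sides and 4 between the mates in 1 or both groups. Hsp90b1, with the levels given above, was the highest of its group in TBK1-WT ∆control and in those labelled TBK1-cKD ∆IKKe. Asns was the lowest in both. Ppp1r15a and Ddit3 were above their mates in both groups, and Psat1, Shmt2 and Phgdh below. How many of all genes lay outside their mates in this way was not counted, so these counts cannot be read as particular to the 34. These are 2 libraries of different groups, so the differences carry no test.

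**Figure D4:**
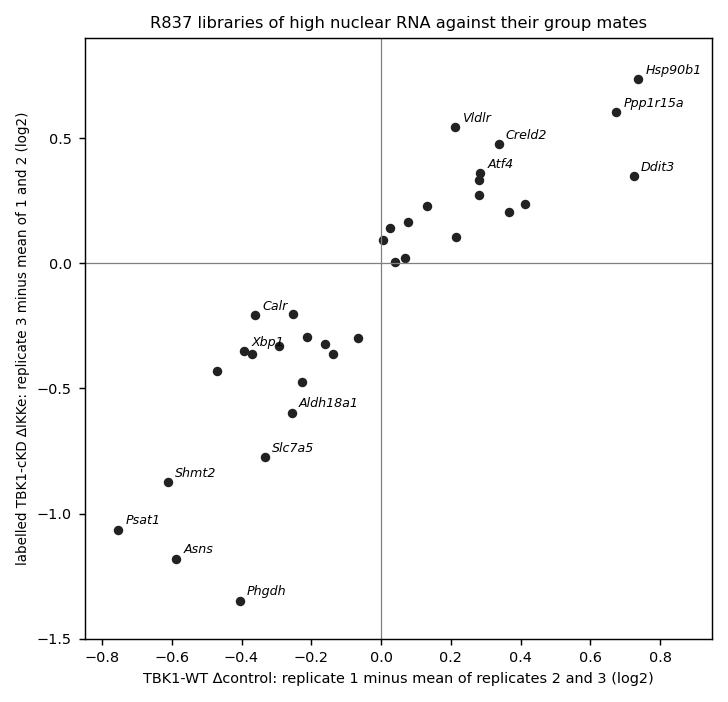
Each point is 1 of the 34 genes, with the log2 difference of the R837 library of high nuclear RNA from the mean of its 2 group mates in TBK1-WT ∆control (horizontal axis) and in the TBK1-cKD ∆IKKe-labelled libraries (vertical axis). Hsp90b1 and Ppp1r15a are high in both and Psat1, Asns and Shmt2 low in both.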

How the data were processed

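RNA-seq libraries of 24 bone marrow-derived macrophage cultures (8 groups of 3) were analysed. Reads were aligned with GSNAP to GRCm38, per the submitters' processing notes. The authors deposited raw read counts per gene over exons, the RPKM of each gene, and the exon width of each gene in bases, 1 table per library. Per the file headers the RPKM values refer to that width, and they imply a library total larger than the sum of gene counts, from which the share of reads outside gene counts was taken. What counted the reads, with which annotation and after which read filter, is not given in the sources used here. No column was left unused (0), and the 233 gene identifiers without a symbol hold 0.0187% of counts.

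Deposited counts were tested with edgeR 4.0.16 (quasi-likelihood F test, TMM scaling, Benjamini-Hochberg adjustment over 14681 genes, threshold 0.05) in R 4.3.3, with 1 mean per group over all 24 libraries and 16 residual degrees of freedom. The filter on low counts was edgeR's filterByExpr with a minimum count of 10 and a minimum total of 15. Variation between replicates (common BCV) was 0.116. SE is the log2 change divided by the square root of F. The 16 comparisons were the R837 response in each genotype, genotype differences untreated and after R837, response differences and, after R837, the interaction of TBK1 with IKKe. Alternatives were RLE scaling, no count filter, DESeq2 1.42.0, a nuclear RNA term, fits without the R837 libraries of high nuclear RNA or with libraries of high nuclear RNA alone, fits of only the compared groups, and leaving out each library. The code was tested on simulated data.

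The 34 genes and the pathway lists were chosen with earlier results of these data known. Values in every library are given for Atf4, Ddit3, Xbp1 and the sensors, for genes with a called change of at least 2-fold and for genes called in a genotype comparison. From each pathway list the 2 highest and 2 lowest called genes of the TBK1-WT ∆control response with groups that do not overlap are named. Psat1, Hsp90b1, Dnajb9, Calr and Creld2 fall outside that rule, and the levels shown for them were chosen after their values were seen. Replicates are separate mice per the labels' protocols. Values of some single genes of the pathway and marker lists are not reported here.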

Additional observations from a re-analysis of the deposited data

Results flagged for a closer look

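Responses to R837 that differed from that of TBK1-WT ∆control by the test of the difference were flagged, as were genes whose TBK1 by IKKe interaction after R837 passed. All values are log2 differences from edgeR's quasi-likelihood test. In TBK1-cKD ∆control the Atf4 response differed by -0.53. In the TBK1-cKD ∆IKKe-labelled libraries the responses of Atf6 (-0.28), Slc3a2 (0.36), Ern1 (0.51), Hspa5 (0.43) and Herpud1 (-0.998) differed. The Ikbke level of these libraries goes against the label when untreated, and in R837 replicate 3 beside controls of low nuclear RNA.

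The interaction passed for Atf4 (0.38), Atf3 (0.58), Ddit3 (1.28), Nupr1 (2.15), Ppp1r15a (1.11), Ern1 (0.67) and Hspa5 (0.51), which lay above the sum of the single alterations. It also passed for Asns (-0.98), Shmt2 (-0.68), Aldh18a1 (-0.62) and Herpud1 (-0.48), which lay below it. Of all genes, 22.2% passed for the interaction, 17.3% for the response difference of the labelled libraries and 0.879% for that of TBK1-cKD ∆control. Nuclear RNA is high in 1 library of TBK1-WT ∆control and 1 of the labelled group after R837. With nuclear RNA as a term, 5 response differences passed in TBK1-cKD ∆control, 15 in the labelled libraries and 13 interactions, and without the 2 libraries 6, 11 and 11. In a fit of only the compared groups these counts were 0, 4 and 6, and 0 of the 4 negative interactions passed. Groups of 3 are too small for a search for single outlying libraries.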

How the results depend on the processing

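Over single genes and comparisons, 6912 alternative values kept their direction and side of the threshold, 255 lost a call, 220 gained one and 22 turned direction. No paired analysis was possible because replicate numbers were given in record order and the labels pair no samples across groups. Counts of called genes moved by over 1.5 times as follows. For untreated TBK1-cKD ∆control (2), the count was 1 with no count filter, 5 with the nuclear RNA term, 5 without the R837 libraries of high nuclear RNA and 8 with only the compared groups. For untreated libraries labelled TBK1-cKD ∆IKKe (10), those last 3 gave 21, 21 and 26. All untreated libraries are of high nuclear RNA, so the term cancels from these untreated differences and is no check on them. After R837, TBK1-cKD ∆control (8) had 13, 14 and 0. With only the compared groups, TBK1-WT ∆IKKe (1) had 0, the labelled libraries had 7 against TBK1-WT ∆control (17) and 6 against TBK1-cKD ∆control (16), and the interaction (11) had 6. The response difference of TBK1-cKD ∆control (1) had 5, 6 and 0, and that of the labelled libraries (5) had 15 and 11 with the term and without the 2 libraries. The shares of all genes called were not counted for these comparisons in the alternative fits, and the cause was not tested.

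Leaving out 1 library gave 25 to 28, 27 to 29, 27 to 29 and 24 to 29 called genes for the 4 responses. Untreated TBK1-WT ∆IKKe, TBK1-cKD ∆control and the labelled libraries had 0 to 0, 0 to 2 and 5 to 6, and after R837 they had 0 to 1, 5 to 8 and 16 to 21. The labelled libraries had 14 to 20 against TBK1-cKD ∆control and 12 to 19 against TBK1-WT ∆IKKe. The response differences had 0 to 0, 0 to 1 and 4 to 9, and the interaction 7 to 16. The shares of all genes called on leaving out 1 library were not counted. The interaction had 7 without TBK1-WT ∆control R837 replicate 1, and the third response difference had 8 without that library and 9 without labelled R837 replicate 3.

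Directions that turned with the nuclear RNA term were those of Dnajc3 (0.11) and Psat1 (-0.38) in TBK1-WT ∆control, Calr (-0.22), Ern1 (0.091) and Psat1 (-0.26) in TBK1-WT ∆IKKe, and Ern1 (0.10), Dnajc3 (0.044), Psat1 (-0.33) and Aldh18a1 (-0.29) in TBK1-cKD ∆control. In the labelled libraries they were Calr (-0.14), Hsp90b1 (0.21), Aldh18a1 (-0.28) and Shmt2 (-0.018). The Xbp1 interaction turned with the term (0.18) and without the 2 libraries (0.20). With only libraries of high nuclear RNA, TBK1-WT ∆control kept only R837 replicate 1 and the labelled libraries only R837 replicate 3. In that fit Psat1 (-0.27) turned in TBK1-WT ∆control, and Hsp90b1 (0.23), Dnajc3 (0.003), Aldh18a1 (-0.40), Shmt2 (-0.10), Atf3 (0.014) and Slc7a5 (-0.45) in the labelled libraries. Depth limits Phgdh, Chac1 and Vldlr most.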

Other observations

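Genes next to the 34 in these pathways moved apart in the R837 responses. Slc7a11, which pairs with Slc3a2 in the cystine importer, rose by 5.75 on the log2 scale in TBK1-WT ∆control, 6.29 for TBK1-WT ∆IKKe, 6.25 for TBK1-cKD ∆control and 6.03 for the TBK1-cKD ∆IKKe-labelled libraries, far above the largest Slc7a5 change. Atf6b, the relative of Atf6, rose by 0.93, 0.88, 0.78 and 0.84 in that order, while Atf6 fell in each. Among the kinases of eIF2, the HRI gene Eif2ak1 rose by 0.45, 0.50, 0.51 and 0.42, and the GCN2 gene Eif2ak4 fell, with log2 changes of -1.51, -1.77, -1.68 and -1.16. The PKR gene Eif2ak2 gave 0.10, -0.45, 0.27 and 0.36 and did not pass in any of the 4. These genes were singled out after their values were seen.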
